A study of Mus musculus with 12 samples.

Results

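The genes described here encode enzymes that act directly below the B-cell receptor and its precursor, the pre-B-cell receptor: Src-family kinases (Lyn, Fyn, Blk), Syk-family kinases (Syk, Zap70), the Tec-family kinase Btk, phospholipase C (Plcg2), protein kinase C (Prkcb), a catalytic subunit of PI3K (Pik3cd) and an inositol phosphatase (Inpp4b). They were chosen by gene symbol, and a transcript cluster (the set of probes that reads 1 gene on these arrays) carried the symbol of 9 of the 10 named genes, out of 19938 genes with a cluster of their own. Lyn was not analysed here. Each of the 9 was read by 1 cluster. The genes were chosen with earlier results of these data known, so their counts beside all clusters are a description.

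RNA of pro-B cells purified from the bone marrow of mice aged 1 month was measured on 12 arrays, 4 from each of 3 genotypes. The wild-type mice (WT) carried no named deletion, Pax5+/- mice lacked 1 copy of Pax5, and Cd72+/-;Pax5+/- mice lacked 1 copy each of Pax5 and Cd72, so both mutant groups shared the loss of a Pax5 copy. No group lost Cd72 alone. Pax5 is the transcription factor that commits cells to the B lineage, and Cd72 is an inhibitory receptor on B cells. The labels call the mutant cells preleukemic precursor B cells and the WT cells pro-B cells. The deleted parts of the genes and the strain are not stated. Nothing says that each array is a mouse of its own, so a p-value here weighs a difference against array-to-array spread that could be technical. The number of arrays limits the precision.

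In B cells, a receptor that is engaged has its signal chains phosphorylated by Src-family kinases, which recruits and activates Syk. Syk then phosphorylates an adaptor that brings Btk and phospholipase C gamma 2 together, and the lipase releases the messengers that raise calcium and activate protein kinase C beta. In parallel, PI3K delta makes the membrane lipid that recruits Btk and Akt, and phosphatases such as Inpp4b remove its products. In precursor B cells that have made a heavy chain, enzymes of these families carry the signal of the pre-B-cell receptor. Signalling by either receptor was not measured here.

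RefSeq start sites (build GRCm38.p6) were found for 8 of the 9 measured genes, with 13 windows in all. The 250 bases before the start are printed for the 4 genes that differed in at least 1 comparison and have a single listed start, because their levels are the ones that follow. Capitals mark matches, on either strand, to 5 motifs. These are the octamer ATGCAAAT, read by Oct factors, GAGGAA, a core of PU.1, the E-box CAGCTG, the GC box GGGCGG, and the palindrome of Ebf1.
Prkcb, chr7:122288875-122289124, plus strand: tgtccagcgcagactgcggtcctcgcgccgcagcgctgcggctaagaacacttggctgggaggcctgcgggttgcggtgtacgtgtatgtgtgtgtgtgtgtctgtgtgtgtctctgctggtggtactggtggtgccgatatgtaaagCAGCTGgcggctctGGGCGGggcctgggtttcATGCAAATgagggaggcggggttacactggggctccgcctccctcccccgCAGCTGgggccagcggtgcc
Inpp4b, chr8:81342312-81342561, plus strand: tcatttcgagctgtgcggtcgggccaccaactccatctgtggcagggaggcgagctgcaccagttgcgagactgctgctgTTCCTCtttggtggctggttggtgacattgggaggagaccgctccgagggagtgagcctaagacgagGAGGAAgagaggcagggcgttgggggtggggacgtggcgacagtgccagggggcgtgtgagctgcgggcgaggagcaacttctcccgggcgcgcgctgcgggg
Fyn, chr10:39369549-39369798, plus strand: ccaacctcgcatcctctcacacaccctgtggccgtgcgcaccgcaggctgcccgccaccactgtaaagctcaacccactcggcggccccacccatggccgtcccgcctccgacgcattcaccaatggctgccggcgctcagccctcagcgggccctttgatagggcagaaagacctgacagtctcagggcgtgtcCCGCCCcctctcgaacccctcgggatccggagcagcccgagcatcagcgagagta
Btk, chrX:134583141-134583390, minus strand: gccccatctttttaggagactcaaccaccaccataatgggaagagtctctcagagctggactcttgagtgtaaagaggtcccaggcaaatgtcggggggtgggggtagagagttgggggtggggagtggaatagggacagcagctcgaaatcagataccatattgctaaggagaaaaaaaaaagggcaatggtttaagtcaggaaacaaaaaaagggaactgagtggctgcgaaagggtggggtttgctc

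The Prkcb window held the octamer, which began 70 bases before the start and which 1.6% of the 32851 windows of this length in the table hold. It also held 2 E-boxes (present in 13% of windows) and 1 GC box (32.7%). The Inpp4b window held GAGGAA at 2 places (23.3% of windows), the Fyn window 1 GC box, and the Btk window none of the 5. The Ebf1 palindrome, in 0.779% of all windows, was in none of the 13 windows of these genes, and the octamer was in no other than that of Prkcb. A match is a run of letters, and no binding was measured here.

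Signal is given on the log2 scale of the deposited values, so a difference of 1 is a 2-fold change. A gene was taken to have changed where limma, fitted over all 23410 clusters with a gene symbol, gave a Benjamini-Hochberg adjusted p under 0.05. Exact permutation tests of 4 arrays against 4 cannot go below 0.0286 (two-sided). Among pro-B markers, Vpreb1 lay between 11.95 and 12.79 and Igll1, both parts of the surrogate light chain, between 12.49 and 13.33. Other pro-B markers differed between genotypes. Dntt, which adds bases at the joints of antibody genes, read 9.76 to 11.93 in WT, 10.54 to 10.82 in Pax5+/- and 8.29 to 8.85 in Cd72+/-;Pax5+/-, where it was lower than in both. Cd93 rose by 1.27 in Pax5+/- against WT and was lower in the other mutant than there (-0.85), and Ebf1 rose in both mutants (0.315 and 0.25). Of 6 measured mature B-cell markers, Ms4a1 lay between 4.83 and 5.10 and Cd37 between 11.24 and 11.54. Cxcr5 fell in both mutants (-1.265 and -1.515), Ccr7 fell in Pax5+/- (-0.89), and Cd37 fell in the other (-0.185). The mean of the 6 was 7.20 to 7.35 in WT, 6.89 to 6.98 in Pax5+/- and 6.92 to 6.98 in Cd72+/-;Pax5+/-. Both mutants lay below WT in this mean, as for Prkcb and Inpp4b, but not in every marker. Ms4a1, Cr2 and Fcer2a passed in no comparison, and their changes against WT lay between -0.0625 and 0.115. The part of these markers in the results was not tested. The T-cell marker Cd3g lay between 4.99 and 5.27.

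The WT arrays stood apart from each other in pairs, as those of Pax5+/- did less sharply, and several of these enzymes followed that division. Over all tested clusters, the difference between 2 arrays had an SD of 0.109 for WT replicates 1 and 3. It was 0.117 for WT replicates 2 and 4, and 0.27 to 0.28 for the other WT pairs. In Pax5+/- it was 0.122 for replicates 2 and 4, 0.177 for replicates 1 and 3, and 0.195 to 0.281 for the other pairs. All enzymes but Btk and Inpp4b read lower on Pax5+/- replicates 1 and 3 than on 2 and 4. WT arrays were also left out in pairs, a step added after seeing the data. Each such omission leaves 2 similar WT arrays, whose small spread adds calls by construction. Pax5+/- arrays were not left out in pairs. The mean of 13 pro-B markers was 11.84, 11.05, 11.87 and 11.02 in WT replicates 1 to 4, against 11.56 to 11.68 in Pax5+/- and 11.31 to 11.45 in Cd72+/-;Pax5+/-. The mean of 8 marrow stroma markers was 8.86, 8.32, 8.86 and 8.32 in the same WT arrays. It was 8.43, 7.37, 8.505 and 7.41 in Pax5+/- replicates 1 to 4 and 7.24 to 7.5 in Cd72+/-;Pax5+/-. Of these markers, Alpl alone passed in Pax5+/- against WT (-3.775). In Cd72+/-;Pax5+/- against WT, Alpl (-2.245), Cxcl12 (-1.92) and Sparc (-1.97) fell. Between the mutants Alpl was higher (1.53) and Cxcl12 lower (-1.58) in Cd72+/-;Pax5+/-. In RNA of whole cell samples, fewer cells of a type and less RNA per cell cannot be told apart. The arrays also differed in sex-linked RNA: Xist read 11.75 to 11.90 in Cd72+/-;Pax5+/- and 5.00 to 5.52 on all others, while the Y-linked Uty read 4.88 to 5.19 there and 8.85 to 9.74 elsewhere. The genotype of that group and this sex-linked difference cannot be told apart.

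**Figure D1:**
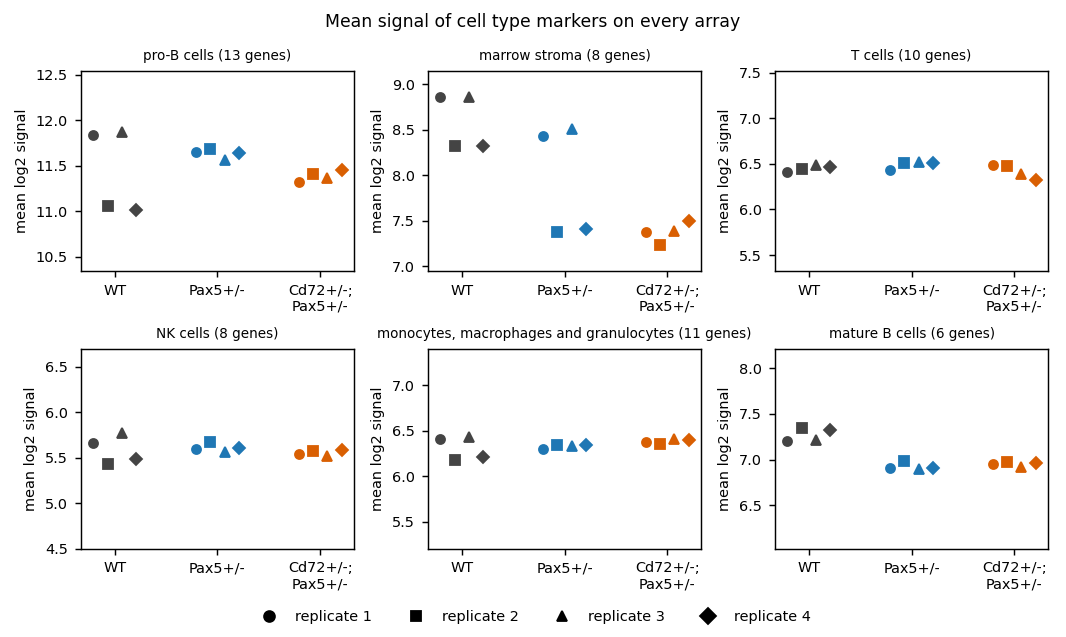
Mean log2 signal of the markers of 6 cell types (vertical axis) on each array, by genotype (horizontal axis), with a symbol per replicate. WT replicates 1 and 3 lie above replicates 2 and 4 for pro-B markers (11.84 and 11.87 against 11.05 and 11.02). Stroma markers in Cd72+/-;Pax5+/- (7.24 to 7.5) lie below WT and overlap Pax5+/- replicates 2 and 4 (7.37 and 7.41).

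The enzymes below the receptor did not move in 1 direction. Against WT, 3 of the 9 genes fell in Pax5+/- (Prkcb, Pik3cd and Inpp4b) and none rose, where 7.47% of all tested clusters changed (4.28% rose and 3.2% fell). In Cd72+/-;Pax5+/- against WT, 3 fell (Blk, Prkcb and Inpp4b) and 1 rose (Fyn), where 7.78% of all clusters changed (4.12% rose and 3.66% fell). Between both mutant groups 7 of the 9 differed: Fyn, Prkcb and Pik3cd were higher and Blk, Zap70, Btk and Inpp4b lower in Cd72+/-;Pax5+/-, where 9.79% of all clusters changed (4.44% higher and 5.35% lower). The study's own threshold, an unadjusted p under 0.05 and more than 2-fold, was met by 2, 1 and 1 of the 9 in the same order, against 0.957%, 0.914% and 1.2% of all clusters. With the closest arrays of each group averaged, none of the 7 differences between the mutants passed in limma (adjusted p = 0.0959 to 0.348). Against WT in that setting, Fyn (limma adjusted p = 0.203), Blk and Prkcb did not pass in Cd72+/-;Pax5+/-, nor did Pik3cd in Pax5+/- (0.32). With the closest arrays as a random block, 6 of the 7 passed, while Blk and Prkcb lost their calls in Cd72+/-;Pax5+/- against WT. In Cd72+/-;Pax5+/- against WT, 2 enzymes (Fyn and Inpp4b) passed without WT replicate 1 or 3, or without any 1 of the mutant arrays. Both comparisons with WT use the same WT arrays. The median log2 change of the 9 was 0.00, -0.08 and -0.24 in the order of these comparisons, against -0.005, 0.00 and 0.005 over all tested clusters. Their median absolute change was 0.23, 0.18 and 0.34, against 0.07, 0.07 and 0.075 over all tested clusters. Of the 9 enzymes, 7 read above the median cluster mean (6.96). The part of signal level in these counts and changes was not tested. The arrays of the groups compared did not overlap for 5, 4 and 8 of the 9 genes, against 10.7%, 14.8% and 18.5% of all tested clusters.

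**Figure D2:**
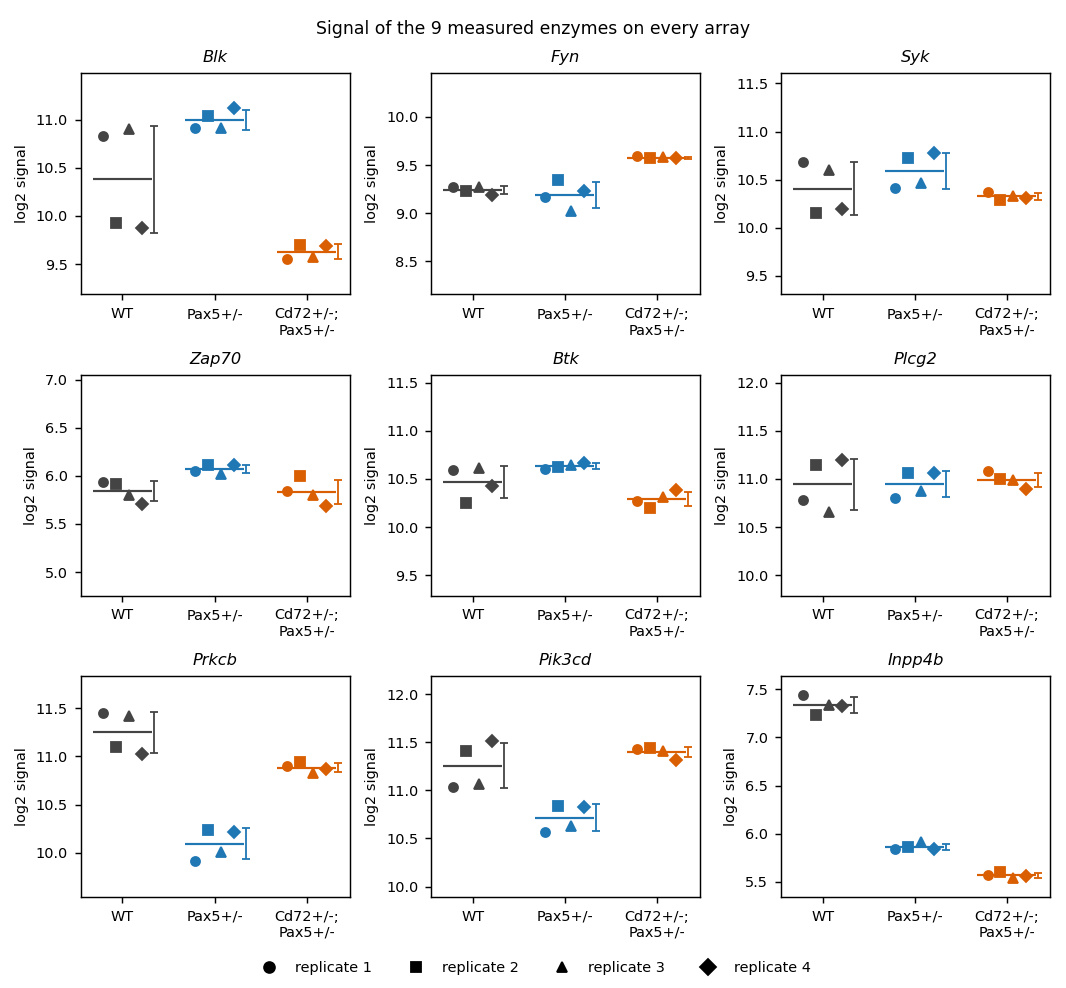
Log2 signal (vertical axis) of the 9 measured enzymes on each array, by genotype (horizontal axis). Symbols are replicates, lines group means and bars the SD over 4 arrays, and all panels span an equal range. Inpp4b is separated from WT in both mutant groups, Prkcb and Pik3cd are lowest in Pax5+/-, and Blk is divided within WT.

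Blk, the Src-family kinase most restricted to B-lineage cells, had the largest SD of the 9 within WT (0.558, n = 4). It read 10.83, 9.93, 10.90 and 9.87 in WT replicates 1 to 4, 10.92, 11.04, 10.91 and 11.12 in Pax5+/-, and 9.55, 9.70, 9.57 and 9.69 in Cd72+/-;Pax5+/-. WT replicates 1 and 3 lay just below the Pax5+/- arrays and replicates 2 and 4 just above the Cd72+/-;Pax5+/- arrays, and no groups overlapped. Blk was 2.58-fold lower in Cd72+/-;Pax5+/- than in Pax5+/- (log2 change -1.37, SE 0.203, limma adjusted p = 0.000673, exact permutation p = 0.0286). Against WT it fell by 0.755 in Cd72+/-;Pax5+/- (adjusted p = 0.04). In Pax5+/- the difference from WT, 0.615, missed the threshold (adjusted p = 0.102). The size of both depended on which WT arrays stood for the group. Omission of a WT pair leaves 2 similar WT arrays, whose small spread adds calls by construction. Without WT replicates 2 and 4 the change was 0.13 in Pax5+/- (adjusted p = 0.431) and -1.24 in Cd72+/-;Pax5+/- (adjusted p = 1.06e-06). Without WT replicates 1 and 3 it was 1.1 (adjusted p = 1.73e-06) and -0.27 (adjusted p = 0.0369). Omission of 1 array was enough to end the call in Cd72+/-;Pax5+/-, namely WT replicate 1 (-0.61, adjusted p = 0.107) or 3 (-0.58, 0.0934) or any 1 of the mutant arrays (0.0797 to 0.102). Omission of WT replicate 1 or 3 brought the rise in Pax5+/- past the threshold (0.76 and 0.79, adjusted p = 0.0336 and 0.0196). In WT the pro-B marker mean was high on the same arrays as Blk, and its part in the result was not tested.

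Fyn, a Src-family kinase of both T and B cells, was higher in Cd72+/-;Pax5+/- alone. Its signal was 9.27, 9.23, 9.27 and 9.19 in WT, 9.17, 9.34, 9.02 and 9.23 in Pax5+/-, and 9.59, 9.57, 9.58 and 9.57 in Cd72+/-;Pax5+/-. The Cd72+/-;Pax5+/- arrays lay above all others and close together, and WT and Pax5+/- overlapped. Fyn rose by 0.34 against WT (SE 0.0594, limma adjusted p = 0.00313, 1.26-fold) and by 0.39 against Pax5+/- (adjusted p = 0.000872, 1.31-fold). WT replicates 1 and 3 were the higher pair for Fyn, by little, and the rise against WT was 0.31 without WT replicates 2 and 4 and 0.37 without replicates 1 and 3.

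Syk, the kinase that docks on the phosphorylated receptor chains, passed in no comparison. It read 10.68, 10.15, 10.60 and 10.19 in WT, 10.41, 10.73, 10.46 and 10.78 in Pax5+/-, and 10.37, 10.29, 10.33 and 10.31 in Cd72+/-;Pax5+/-. The WT arrays were divided as for Blk, and their range covered the Cd72+/-;Pax5+/- arrays. The mutant groups did not overlap, but their difference of -0.27 did not pass after adjustment (95% interval -0.53 to -0.01 for the single gene, limma adjusted p = 0.213). Against WT the intervals ran from -0.07 to 0.45 in Pax5+/- and from -0.34 to 0.18 in Cd72+/-;Pax5+/-, so changes within these bounds are not excluded. Without WT replicates 1 and 3, Syk was higher in Pax5+/- by 0.425 (adjusted p = 0.00967), and without replicates 2 and 4 the difference was -0.045 (adjusted p = 0.909). Each of these p-values rests on 2 similar WT arrays, whose small spread adds calls by construction.

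Zap70, the relative of Syk used by T and NK cells, read low on all arrays. Its signal was 5.94, 5.92, 5.80 and 5.71 in WT, 6.05, 6.11, 6.02 and 6.11 in Pax5+/-, and 5.84, 6.00, 5.80 and 5.69 in Cd72+/-;Pax5+/-. Every Pax5+/- array lay above every other array, by little. The difference of -0.24 between the mutant groups was just past the threshold (SE 0.0696, limma adjusted p = 0.0484). The call ended with all clusters tested (adjusted p = 0.0505), with the closest arrays averaged or blocked (0.348 and 0.193), and without each Pax5+/- array or Cd72+/-;Pax5+/- replicates 1, 3 or 4 (0.0689 to 0.133). In Pax5+/- against WT, Zap70 differed by 0.23, which did not pass (adjusted p = 0.0705). The mean of 10 T-cell markers was 6.42 to 6.49 in WT, 6.43 to 6.52 in Pax5+/- and 6.33 to 6.49 in Cd72+/-;Pax5+/-. Of them Cd28 rose in Pax5+/- and Cd5 was lower in Cd72+/-;Pax5+/- than in Pax5+/-. Of 8 NK-cell markers, with means of 5.43 to 5.77, 5.56 to 5.67 and 5.51 to 5.59 in the 3 genotypes, Nkg7 rose in Pax5+/- and was lower in Cd72+/-;Pax5+/- than there. The part of these markers in the result was not tested.

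Btk, the kinase that couples PI3K lipid to phospholipase C, was lower in Cd72+/-;Pax5+/- than in Pax5+/-. It read 10.59, 10.25, 10.61 and 10.43 in WT, 10.60, 10.62, 10.64 and 10.67 in Pax5+/-, and 10.27, 10.20, 10.31 and 10.38 in Cd72+/-;Pax5+/-. The mutant groups were separate, and the WT arrays spanned the space between them. The difference was -0.34 (SE 0.0733, limma adjusted p = 0.00945, 1.27-fold lower), and neither mutant group passed against WT (adjusted p = 0.265 for 0.16 in Pax5+/- and 0.188 for -0.18 in Cd72+/-;Pax5+/-). Without WT replicate 2 the change in Cd72+/-;Pax5+/- against WT was -0.25 and passed (adjusted p = 0.0235). Without WT replicates 1 and 3, Btk was higher in Pax5+/- by 0.29 (adjusted p = 0.00994). Without WT replicates 2 and 4 it was lower in Cd72+/-;Pax5+/- by 0.31, a change of -0.31 (adjusted p = 0.00409). The p-values without a WT pair each rest on 2 similar WT arrays, whose small spread adds calls by construction. Btk lies on chromosome X, and the Cd72+/-;Pax5+/- arrays were those with Xist signal. The part of sex in its lower signal cannot be told apart from that of genotype.

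Plcg2, the phospholipase that makes the calcium and diacylglycerol messengers, had group means that differed by less than the spread of its arrays. It read 10.78, 11.14, 10.66 and 11.20 in WT, 10.80, 11.06, 10.87 and 11.06 in Pax5+/-, and 11.08, 11.00, 10.99 and 10.90 in Cd72+/-;Pax5+/-. All groups overlapped, and WT replicates 1 and 3 were the lower pair, the reverse of Blk. The 95% intervals of the 3 differences together reached from -0.24 to 0.29, and their limma adjusted p-values were 0.995, 0.891 and 0.877. These do not show that the levels were equal.

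Prkcb, protein kinase C beta, which diacylglycerol activates, was lowest in Pax5+/-. Its signal was 11.45, 11.10, 11.42 and 11.03 in WT, 9.91, 10.24, 10.01 and 10.21 in Pax5+/-, and 10.90, 10.94, 10.83 and 10.87 in Cd72+/-;Pax5+/-. The 3 groups were separate, in the order WT, Cd72+/-;Pax5+/-, Pax5+/-. Prkcb was 2.23-fold lower in Pax5+/- than in WT (SE 0.101 on the log2 scale, limma adjusted p = 8.98e-06). It was 1.73-fold higher in Cd72+/-;Pax5+/- than in Pax5+/- (log2 change 0.79, adjusted p = 0.000195). The fall of 0.365 in Cd72+/-;Pax5+/- against WT was close to the threshold (adjusted p = 0.0459). It was not called in 13 of 18 other settings, 1 of them the study's 2-fold threshold, which such a change cannot meet. Among them were the omission of WT replicate 1 (-0.30, adjusted p = 0.126) of WT replicate 3 (-0.31, 0.12), of any 1 of the mutant arrays (0.087 to 0.119), and of WT replicates 1 and 3 together (-0.18, 0.266). The fall in Pax5+/- passed in all 18 settings, with changes from -1.34 to -0.97.

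Pik3cd, the PI3K catalytic subunit of white blood cells, followed the same order in the mutants. It read 11.04, 11.41, 11.07 and 11.51 in WT, 10.57, 10.84, 10.63 and 10.83 in Pax5+/-, and 11.43, 11.44, 11.41 and 11.32 in Cd72+/-;Pax5+/-. Pax5+/- lay below both other groups, which overlapped. Its level in Pax5+/- was 1.45-fold below that of WT (log2 change -0.54, SE 0.104, limma adjusted p = 0.00539). It was 0.68 higher in Cd72+/-;Pax5+/- than in Pax5+/- (adjusted p = 0.000817, 1.60-fold). In Cd72+/-;Pax5+/- against WT the difference was 0.14 (95% interval -0.08 to 0.37, adjusted p = 0.532). WT replicates 2 and 4 were the higher pair. Without them the fall in Pax5+/- was 0.34, a change of -0.34 (adjusted p = 0.0273), and Cd72+/-;Pax5+/- exceeded WT by 0.345 (adjusted p = 0.0139). Both p-values rest on 2 similar WT arrays, whose small spread adds calls by construction.

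Inpp4b, a phosphatase that removes a phosphate from the PI3K product phosphatidylinositol 3,4-bisphosphate, had the largest and tightest change of the 9 against WT. It read 7.44, 7.23, 7.34 and 7.33 in WT, 5.84, 5.86, 5.91 and 5.84 in Pax5+/-, and 5.57, 5.60, 5.54 and 5.56 in Cd72+/-;Pax5+/-. The 3 groups were separate, with little spread in each. Signal was low in the mutants, and the mean of Inpp4b over all arrays (6.255) lay below the median cluster mean (6.96). Its means in Pax5+/- and Cd72+/-;Pax5+/- (5.86 and 5.57) were below those of Zap70 (6.07 and 5.83), which read low on all arrays. How far low signal affects the fold changes and spread of Inpp4b was not tested. Inpp4b was 2.78-fold lower in Pax5+/- than in WT (log2 change -1.47, SE 0.0476, limma adjusted p = 1.58e-09). In Cd72+/-;Pax5+/- it was 3.40-fold lower than in WT (log2 change -1.77, adjusted p = 2.55e-10) and 1.23-fold lower than in Pax5+/- (log2 change -0.295, adjusted p = 0.00132). The changes against WT passed in all 17 other settings in which the gene was tested.

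**Figure D3:**
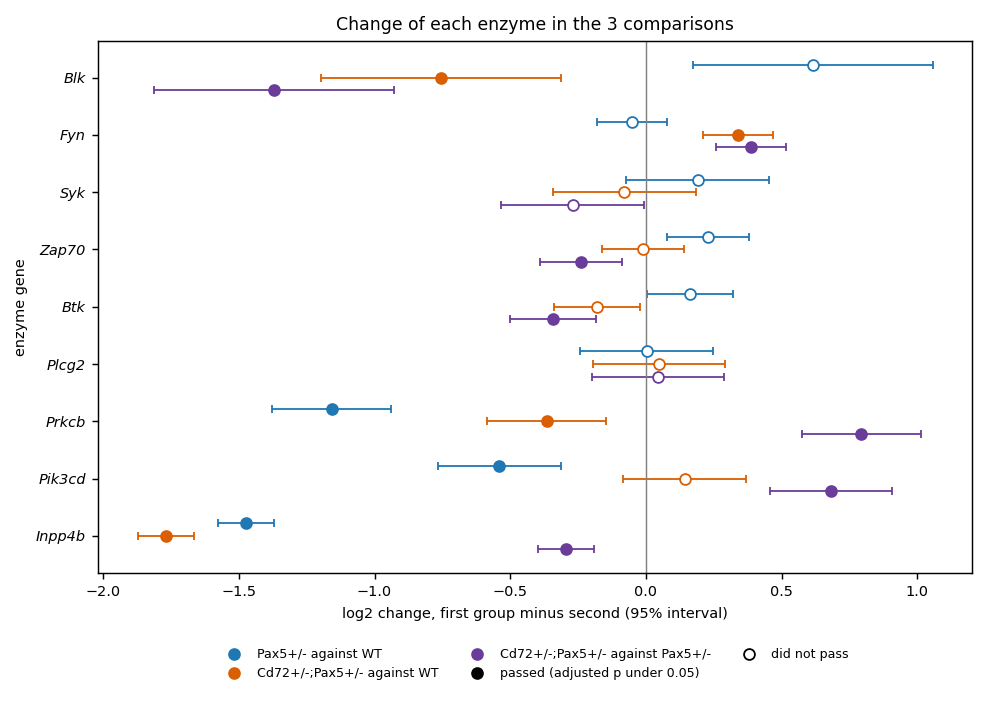
Log2 change with its unadjusted 95% interval (horizontal axis) for each enzyme (vertical axis) in the 3 comparisons, where filled points passed at an adjusted p under 0.05. Inpp4b lies furthest below 0 against WT (-1.47 and -1.77), and 7 of 9 genes are filled in Cd72+/-;Pax5+/- against Pax5+/-.

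Across the 12 arrays some of these genes rose and fell together. This is described without a test because the arrays share 3 genotypes and the divisions within WT and Pax5+/-. Blk went with Btk (Pearson r = 0.94) and Syk (0.81), and against Pik3cd (-0.89). Prkcb went with Pik3cd (0.71). Of 19937 other genes, those most like Blk over the 12 arrays were AB124611, Zbtb20 and Pik3cg (r = 0.99, 0.99 and 0.98). For Prkcb they were Pgf, E2f2 and Ccnd3 (all 0.98). For Pik3cd they were Bcar3, Igfbp4 and Cep41 (0.99, 0.98 and 0.98). Those most like Inpp4b were Eng, Ugcg and Plcb4 (all 0.99), and those most like Btk were Tmem106b, Tug1 and C330007P06Rik (0.98, 0.97 and 0.96). Fyn was most like Pck2, Ncoa1 and Plxnb2 (0.97, 0.96 and 0.96), and Zap70 like Rab32, Csgalnact1 and Olfr998 (0.94, 0.92 and 0.91).

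The rest of the pathway was read from 115 listed genes in 10 branches, of which 101 were measured. The list was chosen with earlier results of these data known, so shares above those of all clusters are a description and not a test. In Pax5+/- against WT, 11 rose and 14 fell (24.8%, against 7.47% of all clusters). In Cd72+/-;Pax5+/- against WT, 7 rose and 10 fell (16.8%, against 7.78%). Between the mutants 13 were higher and 16 lower in Cd72+/-;Pax5+/- (28.7%, against 9.79%). The genes lower in Cd72+/-;Pax5+/- in these counts include Cd72 itself, of which that group lacks a copy. The median log2 change was within 0.05 of 0 in each comparison (-0.005, -0.04 and -0.02), so the genes moved both ways. With the closest arrays as a random block, 21 of 25, 10 of 17 and 23 of 29 kept their call. In Pax5+/- against WT, Ppp3cb, Nfatc2, Prkcq and Prkci lost it. In Cd72+/-;Pax5+/- against WT, Plcg1, Prkca, Prkcd, Nfatc2, Akt2, Dapp1 and Rasgrp3 lost it (limma adjusted p = 0.0755 to 0.201). Between the mutants Sos1, Lat2, Ptprc, Nck1 and Rasgrp3 were among those that lost it (0.0555 to 0.173). With those arrays averaged, which leaves 2 units a group and the same log2 changes, 2 of 25, 2 of 17 and 3 of 29 kept it: Ighm and Lat, Ighm and Cd22, and Lat, Plcg1 and Cd72.

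At the receptor, Ighm, the heavy chain of IgM, fell by 1.27 in Pax5+/- (SE 0.103, limma adjusted p = 4.5e-06) and by 1.43 in Cd72+/-;Pax5+/- against WT. Cd79a, a signal chain, fell by 0.33 in Pax5+/- and was 0.30 higher in Cd72+/-;Pax5+/- than in Pax5+/-. Ptprc, the phosphatase CD45 that activates Src kinases, was lower there by 0.27, a change of -0.27. The other 7 of 10 measured genes of the receptor did not pass in any comparison. Among 6 other Src- and Tec-family kinases, Tec was lower in Cd72+/-;Pax5+/- than in Pax5+/- (log2 change -0.40, adjusted p = 0.00311) and nothing else passed.

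Among 13 adaptors and exchange factors, Bank1, a scaffold for Lyn and phospholipase C, fell by 1.26 in Pax5+/- against WT and was 1.74 higher in Cd72+/-;Pax5+/- than in Pax5+/- (limma adjusted p = 0.00101 and 5.9e-05). Lat, the T-cell adaptor, moved the same way, at -0.675 and 0.63. Lat2, its relative in B cells, rose by 0.385 in Pax5+/- and was lower in Cd72+/-;Pax5+/- than there (-0.265). Vav3, an exchange factor for Rac, was lower in Cd72+/-;Pax5+/- than in both other groups (-0.795 against WT and -1.005 against Pax5+/-). Dapp1 fell by 0.305 against WT, and between the mutants Sos1 was higher (0.355) and Nck1, named after its value was seen, lower (-0.30).

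Beside Plcg2, which passed nowhere, its relative Plcg1 fell by 1.07 in Pax5+/- against WT and was 1.66 higher in Cd72+/-;Pax5+/- than in Pax5+/- (SE 0.164, limma adjusted p = 0.00105 and 2.2e-05). Plcg1 read 8.11 ± 0.116 in Pax5+/- and 9.77 ± 0.0299 in Cd72+/-;Pax5+/- (SD, n = 4). In WT it was 9.18 ± 0.443, and its rise of 0.59 in Cd72+/-;Pax5+/- was near the threshold (adjusted p = 0.0475). Of 12 genes of phospholipase C, calcium and NFAT, 5 fell in Pax5+/- and none rose, where 3.2% of all clusters fell and 4.28% rose: Plcg1, the calcineurin subunits Ppp3ca (-0.315) and Ppp3cb (-0.225), the calcium channel Itpr3 (-0.49) and Nfatc2 (-0.20). Ppp3cb and Nfatc2 lost their call in limma with the closest arrays as a random block (adjusted p = 0.0854 and 0.0978). Between the mutants Plcg1, Ppp3ca (0.34), Ppp3cb (0.25) and Orai1 (0.32, named after its value was seen) were higher in Cd72+/-;Pax5+/-, and Itpr2 was lower (-0.84). Against WT, Itpr2 fell by 0.66 and Nfatc2 by 0.19 in Cd72+/-;Pax5+/-.

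Among 9 other genes of protein kinase C and D, 4 fell and 2 rose in Pax5+/-, where Prkcb also fell and where 3.2% of all clusters fell and 4.28% rose. Prkd2 (-0.685), Prkca (-0.41), Prkcq (-0.31) and Prkci (-0.26, named after its value was seen) fell, and Prkce (0.35) and Prkd3 (0.39) rose (limma adjusted p = 0.000911 to 0.0116). Prkcq and Prkci lost their call with the closest arrays as a random block (adjusted p = 0.104 and 0.0553). Prkcq (-0.42) and Prkca (-0.325) fell and Prkce (0.32) and Prkcd (0.23) rose in Cd72+/-;Pax5+/- against WT. Prkd2 (0.52) and Prkcd (0.34) were higher and Prkd3 (-0.57) lower there than in Pax5+/-.

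Beside Pik3cd, the other PI3K genes went their own ways. Pik3cg, the gamma catalytic subunit, was lower in Cd72+/-;Pax5+/- than in WT (-0.51) and than in Pax5+/- (-0.72, limma adjusted p = 0.0014). Pik3r1, the regulatory subunit p85 alpha, was lower in Cd72+/-;Pax5+/- than in Pax5+/- (-0.455). Pik3r5, a regulatory subunit of the gamma form, fell by 0.805 in Pax5+/- against WT, and Akt2 rose by 0.22 in Cd72+/-;Pax5+/- against WT. Among 9 lipid and inositol phosphatases and kinases, Inpp4a, the closest relative of Inpp4b, rose by 0.65 in Pax5+/- (adjusted p = 0.000535) where Inpp4b fell, and was 0.40 lower in Cd72+/-;Pax5+/- than in Pax5+/- (a change of -0.40). Inppl1, the phosphatase SHIP2, rose by 0.715 in Pax5+/- and 0.64 in Cd72+/-;Pax5+/- against WT. The other 7 of that branch passed in no comparison.

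Further down, of 8 genes of the Ras and MAP kinase branch, Mapk8 rose by 0.28 in Pax5+/- and was lower in Cd72+/-;Pax5+/- than there (-0.265). Rasgrp3 was higher in Cd72+/-;Pax5+/- than in WT (0.22) and Pax5+/- (0.215), and Rasgrp2 higher than in Pax5+/- (0.33). Rasgrp3 read low on all arrays (4.84 to 5.18) and overlapped between the mutants. Its calls were near the threshold (limma adjusted p = 0.039 and 0.0346). Both were lost with the closest arrays as a random block (0.201 and 0.173).

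Of 14 brakes of receptor signalling, 5 rose and none fell in Pax5+/- against WT, where 4.28% of all clusters rose and 3.2% fell: Cd72 (1.29), Cd22 (0.39), the phosphatase Ptpn6 (0.31), the adaptor Dok3 (0.94) and the ubiquitin ligase Cblb (0.54, named after its value was seen). Their limma adjusted p-values ran from 0.000827 to 0.0175, and the highest was 0.0305 with the closest arrays as a random block, where all 5 kept their call. With those arrays averaged none of the 5 did, at the same log2 changes (adjusted p = 0.122 to 0.437). Between the mutants Cd72 (-2.675), Ptpn6 (-0.335), Dok3 (-1.0025) and Cblb (-0.655) were lower in Cd72+/-;Pax5+/-, and Cd22 was higher (0.47). Against WT, Cd22 rose by 0.86, Pag1 fell by 0.66 and Cd72, the gene deleted in this group, fell by 1.39. Pax5 itself fell by 0.60 in Pax5+/- (adjusted p = 0.0051). In Cd72+/-;Pax5+/- its change of -0.36 did not pass (adjusted p = 0.0781). It is not stated whether the probes of both genes lie within the deleted parts, and their levels are a partial check of genotype.

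**Figure D4:**
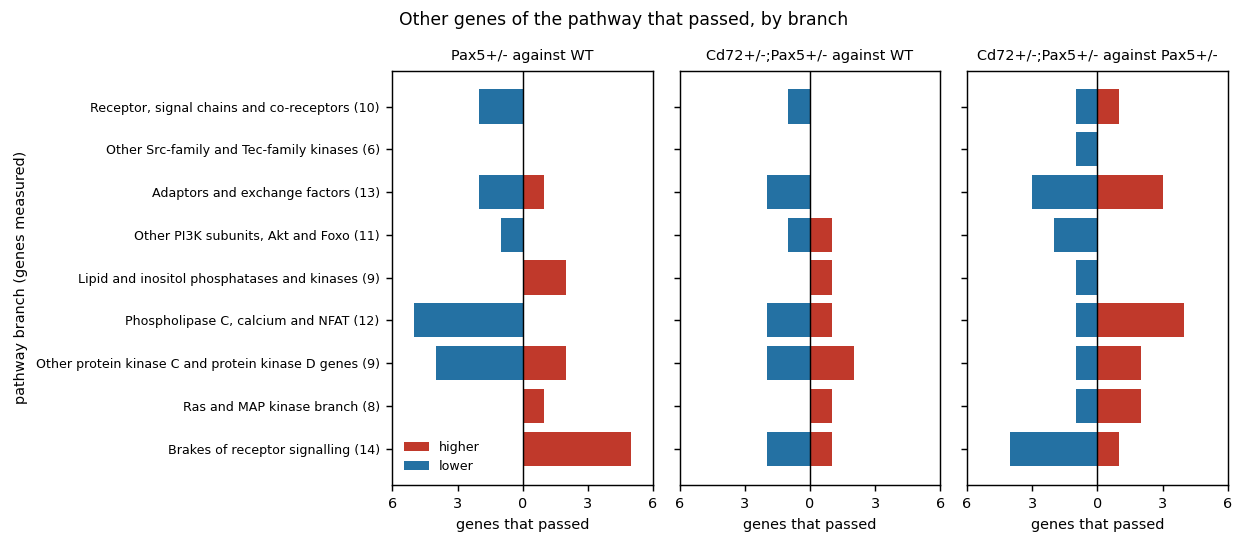
Number of other pathway genes, in the 9 branches described, that passed at an adjusted p under 0.05 (horizontal axis, higher to the right and lower to the left of 0) in each branch (vertical axis, genes measured in brackets), for the 3 comparisons. In Pax5+/- against WT, 5 of 14 brakes are higher and 5 of 12 genes of phospholipase C, calcium and NFAT are lower. Over all clusters, 4.28% were higher and 3.2% lower there. The lists were chosen with earlier results of these data known.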

How the data were processed

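RNA of purified mouse bone-marrow pro-B cells was hybridised to Affymetrix Mouse Gene ST arrays and analysed by the authors with the Transcriptome Analysis Console, per the labels. The deposited table holds log2 signals (3.67 to 14.73, array medians 6.91 to 7.005). How background was corrected and signals were normalized, and the build, is not given in the sources used here. Probes were named from the platform annotation (21789 clusters with 1 symbol, 1621 with several, 5534 with none). The highest-mean cluster stood for a gene.

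In R 4.3.3, limma 3.58.1 estimated each genotype's mean (constant prior, 3.28 prior and 9 residual degrees of freedom) from the 23410 clusters with a symbol and 12 arrays. Groups came from the source names, and replicates were numbered in accession order. SEs are moderated, SDs are over 4 arrays, and intervals are unadjusted. The fit was checked on simulated data. Figures used Python 3.11.15 and matplotlib 3.10.9. Genes named were the 10 enzymes, Pax5 and Cd72, up to 4 called genes with the smallest adjusted p per branch and comparison, and 3 alike genes per called enzyme. Of the 10 pathway branches, 1 is counted in the totals and not reported here on its own. The genes and lists were chosen with earlier results of these data known. Alternatives were quantile normalization, a filter on dim clusters, all clusters, a trended robust prior, only the compared groups, closest arrays averaged or as a random block, the study's threshold (unadjusted p under 0.05 and over 2-fold) and omission of each array. Omission of WT arrays in pairs was added after seeing the data.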

Additional observations from a re-analysis of the deposited data

Results flagged for a closer look

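Of 141 sets of 4 arrays (the 9 enzymes, Pax5, Cd72 and the named pathway genes in each genotype), 4 held 1 array far from the other 3, where chance flags about 1 in 20. None was a set of the 9 enzymes. Akt2 read 10.75 in Cd72+/-;Pax5+/- replicate 1 against 10.58 to 10.60 on the others, and Ighm read 7.19 in Cd72+/-;Pax5+/- replicate 2 against 7.13 to 7.14. Rasgrp3 read 5.04 on that same array against 5.16 to 5.18, and Tec read 9.76 in Pax5+/- replicate 2 against 9.86 to 9.87.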

How the results depend on the processing

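No paired analysis was possible because the sample titles share no number between groups. The mean of a gene's clusters was the same as the single cluster, since each enzyme has 1. Counts come in the order Pax5+/- and Cd72+/-;Pax5+/-, each against WT, then the mutants against each other.

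As reported, 3, 4 and 7 enzymes, 25, 17 and 29 pathway genes and 1749, 1821 and 2292 clusters passed. With the closest arrays averaged (2 units a group) limma called 2, 1 and 0 enzymes, 2, 2 and 3 pathway genes, and 282, 290 and 420 clusters. For the 0, 7 enzymes had an unadjusted p under 0.05, and the random block called 6. With the closest arrays as a random block, 3, 2 and 6 enzymes, 21, 10 and 23 pathway genes, and 1133, 1031 and 1398 clusters passed. The study's threshold kept 2, 1 and 1 enzymes, 4, 2 and 5 pathway genes, and 224, 214 and 280 clusters. Quantile normalization called 2 enzymes in Cd72+/-;Pax5+/- against WT, Fyn higher and Inpp4b lower.

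Without WT replicates 1 and 3 together, 6 enzymes, 47 pathway genes and 4184 clusters passed in Pax5+/- against WT, and 27 pathway genes in Cd72+/-;Pax5+/- against WT. Without WT replicates 2 and 4, 30 pathway genes and 3645 clusters passed in Cd72+/-;Pax5+/- against WT. Each leaves 2 similar WT arrays, whose small spread adds calls by construction. Omission of 1 array at a time gave 3 to 4, 2 to 5 and 6 to 7 enzymes, 24 to 30, 10 to 15 and 25 to 28 pathway genes, and 1338 to 1959, 1257 to 1774 and 1667 to 2331 clusters. The 2 enzymes came without WT replicate 1 or 3 or without any single Cd72+/-;Pax5+/- array. The 10 pathway genes came without Cd72+/-;Pax5+/- replicate 1, 2 or 4, and 11 without replicate 3. Of the values of single enzymes under other settings, 404 kept their call, 50 lost it, 8 gained one and none that was called changed sign. Inpp4b against WT and Prkcb in Pax5+/- against WT kept their calls wherever they were tested (the filter on dim clusters left Inpp4b out). In Cd72+/-;Pax5+/- against WT, Blk lost its call in 11 and Prkcb in 13 of 18 settings. Fyn lost its call there in 2, with the closest arrays averaged and at the study's 2-fold threshold, which its change cannot meet. Other causes of these shifts were not tested.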
